A study of Arabidopsis thaliana with 6 samples.

Results

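A set of 6 Arabidopsis thaliana genes known to be imprinted, meaning that the copy inherited from the mother and the copy from the father are used unequally in the endosperm, was examined for CHH methylation. They were FWA (AT4G25530), MEA (AT1G02580), FIS2 (AT2G35670), PHE1 (AT1G65330), HDG3 (AT2G32370) and HDG9 (AT5G17320). The genes were picked by name, without a methylation cutoff, but earlier results of these data were known at the time. They are 6 of 37899 genes annotated on the nuclear chromosomes, of which 27444 are protein-coding. Each locus ran from the gene start to the gene end with 3000 bases on each side, and an interval of the FWA promoter repeats, chr4:13038100-13038700, was taken by position. All coordinates are TAIR10.

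Whole-genome bisulfite sequencing had been done on DNA from above-ground tissue of 2.5-week-old Col-0 plants grown in soil under a cycle of 16 h light and 8 h dark. Every library carried nrpd1-3, a T-DNA null allele of NRPD1, the largest subunit of RNA polymerase IV (Pol IV). The nrpd1-3 group had no transgene. The NRPD1ΔCTD group carried a FLAG-tagged NRPD1 transgene from which the carboxy-terminal DeCL domain (Defective Chloroplasts and Leaves) was deleted, and the full-length NRPD1 group carried the FLAG-tagged intact transgene. The ΔCTD construct was made from a genomic clone that keeps the promoter of NRPD1 itself. Transgenic lines were selected with Basta. There were 2 libraries per group, described by the study as independent biological replicates, and a wild type was not analysed here, so that full-length NRPD1 served as the reference. The libraries held 192342372 to 225676590 reads over 12654903 to 13819039 CHH cytosines, with a mean of 15.2 to 16.3 reads per listed cytosine and none listed below 5 reads. Reads over NRPD1 itself, relative to chromosome 1, were 4.65 and 4.52 with full-length NRPD1, 3.82 and 3.75 with NRPD1ΔCTD, and 2.43 and 2.31 for nrpd1-3, so both transgenic groups held more NRPD1 DNA than the group without a transgene. These values were not converted to copy numbers. Full-length NRPD1 also lay above NRPD1ΔCTD, so the amount of transgene DNA cannot be told apart from the deletion when these groups are compared.

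In plants Pol IV and the RNA polymerase RDR2 make short double-stranded RNAs that are diced to siRNAs, and these guide the methyltransferase DRM2 to matching DNA. CHH methylation, where H is A, C or T, has no symmetric partner to copy and is the usual readout of this RNA-directed DNA methylation. Several imprinted genes have repeats or transposon remnants nearby that are methylated in vegetative tissue and lose methylation in the central cell, where the DNA glycosylase DME acts. FWA, HDG3 and HDG9 encode homeodomain leucine zipper class IV transcription factors. FWA is silent in vegetative tissue and its loss of promoter methylation gives a stable late-flowering epiallele. MEA is a histone H3 lysine 27 methyltransferase and FIS2 a zinc finger protein of the same Polycomb complex of the endosperm, and PHE1 is a type I MADS box transcription factor. Above-ground vegetative tissue was sampled here, and no transcript of any of these genes was measured.

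The sequences on which the results turn are shown first, from the TAIR10.1 nuclear chromosomes, top strand, 5′ to 3′. A direct comparison of each locus with itself found the known FWA promoter repeats: a short pair of 46 bases, 45 bases apart, and a long pair 211 and 210 bases apart, whose longest stretch, 124 bases, was 96.0% identical between chr4:13038335-13038458 and chr4:13038546-13038669. The copies of the short pair, chr4:13038249-13038294 and chr4:13038294-13038339, lie before the annotated gene start at 13038360 and differ at 2 bases, shown in capitals.
FWA short repeat copy 1: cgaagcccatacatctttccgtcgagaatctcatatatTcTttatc
FWA short repeat copy 2: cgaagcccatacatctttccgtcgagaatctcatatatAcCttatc

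The long pair reaches into the transcribed but noncoding start of FWA. Exon 1 spans chr4:13038360-13038417 and exon 2 chr4:13038520-13038628, whereas the coding sequence begins at 13039312. Intron 1, chr4:13038418-13038519, lies in the first long copy and is shown with capitals at the CHH cytosines whose mean level in full-length NRPD1 was at least 20% (C on the top strand, G where the cytosine is on the bottom strand). Of 5 CHH cytosines of the intron listed in both full-length libraries, 4 were at or above this level.
FWA intron 1: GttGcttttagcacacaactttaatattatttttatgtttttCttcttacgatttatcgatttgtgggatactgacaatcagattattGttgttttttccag

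The HDG9 stretch, chr5:5701201-5701500, is intergenic, 1639 to 1938 bases past the gene end, and is shown because high and low CHH levels met within it. Capitals again mark cytosines at 20% or more in full-length NRPD1.
HDG9 downstream window: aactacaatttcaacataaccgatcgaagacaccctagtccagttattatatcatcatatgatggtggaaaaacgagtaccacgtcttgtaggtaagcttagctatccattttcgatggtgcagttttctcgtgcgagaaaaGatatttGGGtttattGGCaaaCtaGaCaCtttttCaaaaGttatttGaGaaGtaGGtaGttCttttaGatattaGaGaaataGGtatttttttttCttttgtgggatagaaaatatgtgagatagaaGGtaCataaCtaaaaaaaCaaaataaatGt

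The capitals of the HDG9 sequence began at position 143, counted from 1 at its 5′ end (chromosome 5, 5701343). Before it, 19 cytosines were listed in both full-length libraries and the highest mean level was 19.9%. From it onward, all 32 cytosines listed in both full-length libraries were at 20% or more, with a median of 71.2% and a maximum of 88.8%. The boundary was set after the values were seen and is a description.

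The PHE1 stretch, chr1:24264801-24265100, is intergenic too, 1157 to 1456 bases past the gene end, and held the PHE1 window with a difference between groups. Only 2 of 13 cytosines listed in both full-length libraries reached 20%.
PHE1 downstream window: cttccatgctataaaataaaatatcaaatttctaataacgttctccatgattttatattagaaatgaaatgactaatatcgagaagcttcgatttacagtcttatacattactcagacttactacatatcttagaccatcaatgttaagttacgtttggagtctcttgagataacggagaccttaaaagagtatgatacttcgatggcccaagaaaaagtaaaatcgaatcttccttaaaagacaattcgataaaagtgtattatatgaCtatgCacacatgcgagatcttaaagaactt

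MEA is followed by a tandem array that the self-comparison placed between chr1:549649 and chr1:550879, with copies 181 to 183 bases apart. The copy shown, chr1:549865-550062, is 99.5% identical over 198 bases to chr1:550228-550425, with 1 mismatch in capitals, and is printed because so few reads were placed in it.
MEA downstream repeat copy 1: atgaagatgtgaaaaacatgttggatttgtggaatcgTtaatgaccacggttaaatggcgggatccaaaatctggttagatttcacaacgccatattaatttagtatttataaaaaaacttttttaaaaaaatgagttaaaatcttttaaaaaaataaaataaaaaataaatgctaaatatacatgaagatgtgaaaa

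To ask where the loci differed between groups, windows of 300 bases with a step of 200 were tested across the genome by logistic regression on methylated and unmethylated reads. A window needed at least 10 listed cytosines in each library, and a call needed a Benjamini-Hochberg adjusted p of at most 0.01 over 417722 windows and a difference of at least 10 percentage points. The test takes reads as independent and does not read the spread between libraries. Of 308 windows over the 6 loci, 182 could be tested: 40 of 52 at FWA, 29 of 54 at MEA, 36 of 52 at FIS2, 22 of 37 at PHE1, 33 of 59 at HDG3 and 22 of 54 at HDG9. CHH methylation was lower in nrpd1-3 than with full-length NRPD1 in 5 of these windows (2.75%, against 2.43% of all windows tested): 1 at FWA, 1 at PHE1 and 3 at HDG9. NRPD1ΔCTD was higher than nrpd1-3 in 3 windows (1.65%, against 1.49% of all), all at HDG9. NRPD1ΔCTD was lower than full-length NRPD1 in 2 windows (1.10%, against 0.546% of all), 1 at FWA and 1 at HDG9. The 6 loci together were thus called about as often as the genome in the comparisons with nrpd1-3, and the calls sat at a few positions. The comparisons share libraries, and their calls are not independent of each other.

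No member window was called in the opposite directions. By logistic regression, 0 windows were higher in nrpd1-3 than with full-length NRPD1 (0.0182% of all windows), with 20 at an unadjusted p under 0.05 in that direction and 11 by limma. The count was 0 also for NRPD1ΔCTD lower than nrpd1-3 (0.00958% of all), with 14 at an unadjusted p under 0.05 and 8 by limma. It was 0 as well for NRPD1ΔCTD higher than full-length NRPD1 (0.017% of all), with 11 at an unadjusted p under 0.05 and 6 by limma. The largest differences in these directions were 2.52, 3.09 and 2.05 points. The shares of all windows at an unadjusted p under 0.05 were not counted, so these counts cannot be set against the genome. Over all protein-coding genes the median of nrpd1-3 minus full-length NRPD1 was itself positive. It was 0.103 points upstream, 0.189 in the gene and 0.136 downstream.

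**Figure D1:**
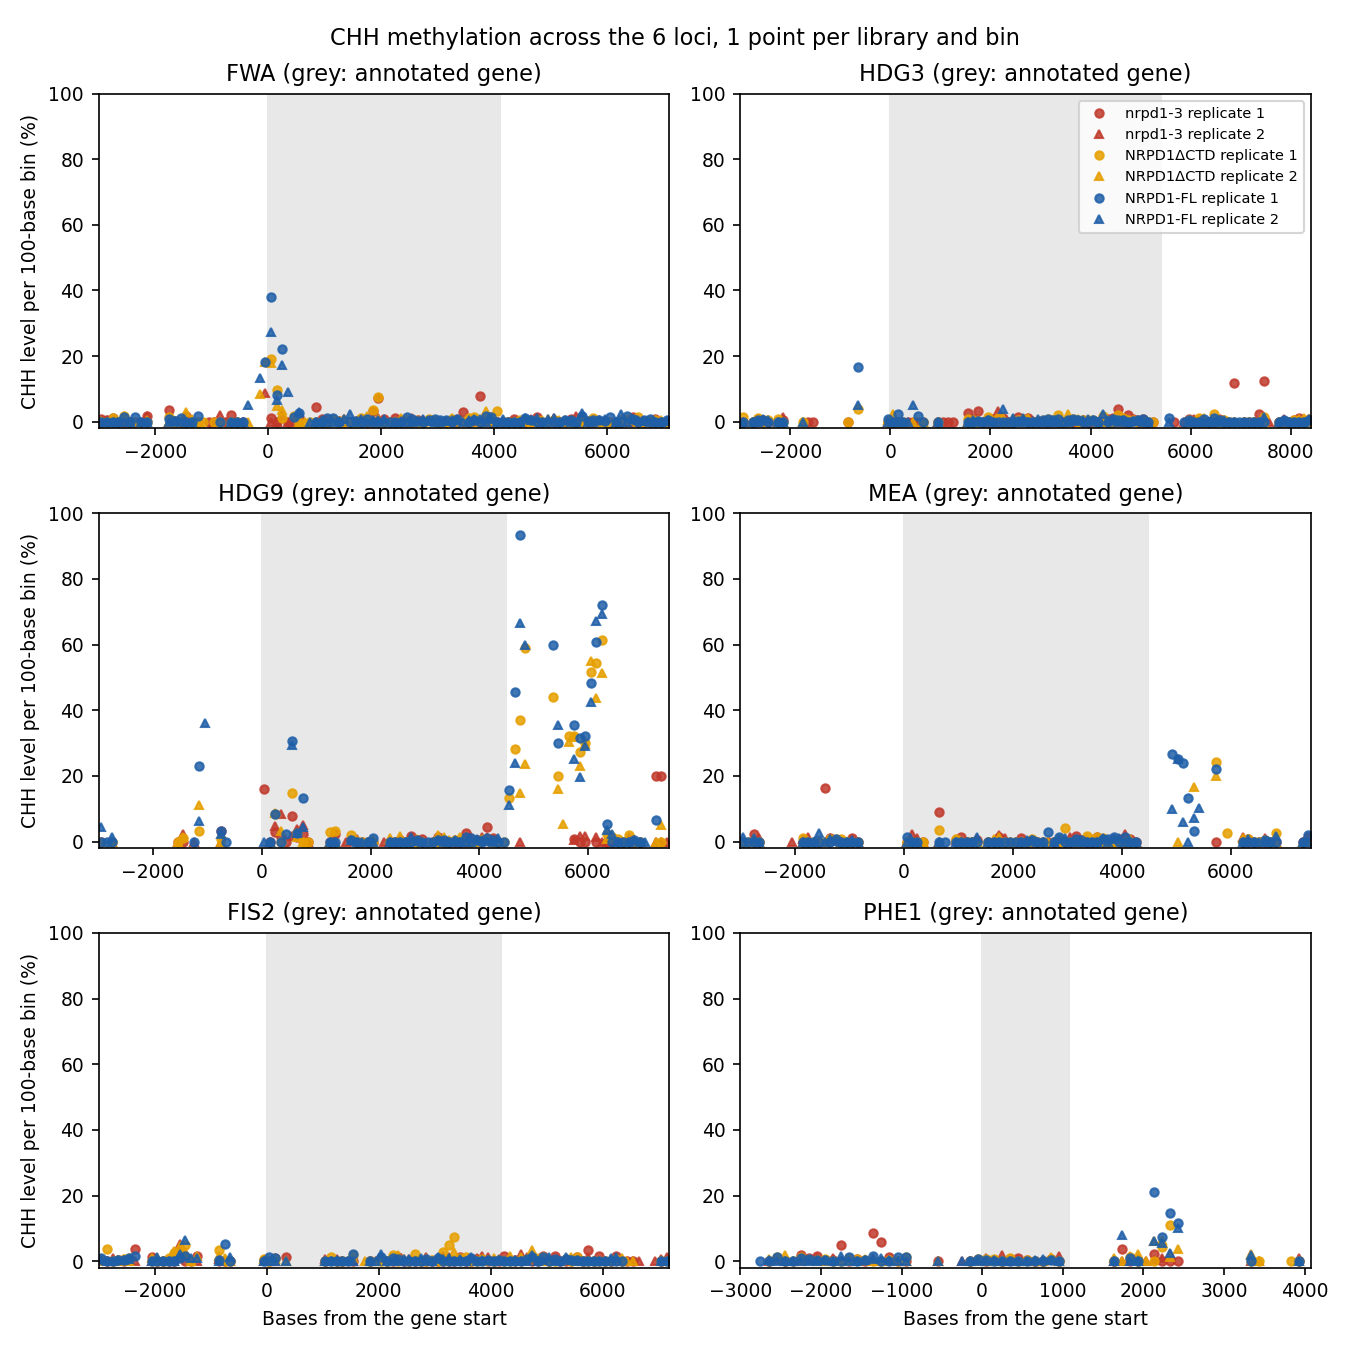
CHH level (%) in 100-base bins across the 6 loci, against bases from the gene start in the direction of transcription, with 1 point per library and bin (circles replicate 1, triangles replicate 2) and only bins with at least 3 listed cytosines drawn. The annotated gene is grey, and points rise above 20% mainly at the FWA start, downstream of HDG9 and in the MEA repeats, where few cytosines were listed.

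FWA carried CHH methylation at its start in full-length NRPD1, little in nrpd1-3 and an intermediate level in NRPD1ΔCTD. Over the repeat interval the level was 21.5% and 17.5% in full-length NRPD1, 7.66% and 8.79% in NRPD1ΔCTD, and 0.79% and 1.67% in nrpd1-3. No library of a group overlapped with another group. The group means were 19.5% ± 2.82, 8.22% ± 0.80 and 1.23% ± 0.62 (SD, n = 2 each). The 95% Wilson intervals for reads ran from 14.0% to 24.9% over the full-length libraries, from 4.77% to 13.8% over NRPD1ΔCTD and from 0.14% to 4.33% over nrpd1-3. These intervals cover counting error only. The difference was -18.3 points for nrpd1-3 minus full-length NRPD1, 7.00 points for NRPD1ΔCTD minus nrpd1-3 and -11.3 points for NRPD1ΔCTD minus full-length NRPD1. An exact two-sided permutation gave p = 0.333 for each comparison, the smallest value that 2 against 2 libraries allow. NRPD1ΔCTD held 38.2% ± 4.39 (SD over its 2 libraries) of the gap between nrpd1-3 and full-length NRPD1.

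The number of cytosines behind these levels moved with the groups. Of 143 CHH cytosines in the reference interval, full-length NRPD1 listed 71 and 53, NRPD1ΔCTD 35 and 33, and nrpd1-3 21 and 37, with 632 and 365, 209 and 182, and 127 and 240 reads. A set of 6 cytosines, all in the first repeat stretch described next, was listed in all 6 libraries. Over these the level was 15.4% and 26.5% with full-length NRPD1, 23.8% and 15% with NRPD1ΔCTD, and 2.94% and 0% for nrpd1-3, from 34 to 42 reads a library. On them nrpd1-3 still lay below both other groups, whereas NRPD1ΔCTD and full-length NRPD1 overlapped, with a difference of -1.52 points.

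Levels along the FWA repeats were read over a pair of stretches. The stretch chr4:13038249-13038532, which joins the short pair and the first long copy, was at 29.8% and 27.5% in full-length NRPD1, 20.3% and 16.4% in NRPD1ΔCTD and 0.79% and 1.54% in nrpd1-3. The second long copy, chr4:13038546-13038742, was at 16.3% and 13.4% in full-length NRPD1, 2.33% and 2.50% in NRPD1ΔCTD, and 0% and 1.64% in nrpd1-3. The NRPD1ΔCTD libraries thus held 69.6% and 55.5% of the gap in the first stretch, and 11.3% ± 0.878 (SD over the 2 libraries) in the second. The NRPD1ΔCTD libraries listed only 10 and 11 cytosines with 64 and 67 reads in the first stretch, against 22 and 15 cytosines with 129 and 80 reads in the second, and no cytosine of the second was listed in all 6 libraries. The difference between the stretches was not tested. Before the gene start, chr4:13038100-13038359, between 0 and 11 of 63 cytosines were listed per library, and nrpd1-3 replicate 1 listed none. The level there was 18.2% and 13.3% with full-length NRPD1, 14.3% and 12.3% with NRPD1ΔCTD, and 8.70% in nrpd1-3 replicate 2 on 3 cytosines, so the sequence before the gene start was hardly measured.

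Only 1 of 5 windows over the FWA interval had enough cytosines for the test. This window, chr4:13038401-13038700, covers the end of exon 1, intron 1, exon 2 and the start of intron 2. Its level was 20.1% and 18.2% in full-length NRPD1, 4.38% and 4.12% in NRPD1ΔCTD, and 0% and 1.18% in nrpd1-3. Pooled reads were 18.5 points lower in nrpd1-3 than with full-length NRPD1 (logistic regression, adjusted p = 3.35e-16) and 15.1 points lower in NRPD1ΔCTD (adjusted p = 2.02e-08). NRPD1ΔCTD and nrpd1-3 differed by 3.46 points (adjusted p = 0.0619), which missed the threshold. Over the FWA interval 1 window was called higher in NRPD1ΔCTD than nrpd1-3 when windows needed only 5 cytosines, a setting chosen after seeing the data, and 1 with 100 bp windows. NRPD1ΔCTD held 19.7% ± 0.958 of the gap. Of the 10165 windows called lower in nrpd1-3 across the genome, 4.30% held less, and the median share was 66.4% with quartiles of 49.6% and 80.7%. The FWA share rests on unlike cytosines. Full-length NRPD1 listed 47 and 43 in this window, NRPD1ΔCTD 28 and 18, and nrpd1-3 13 and 26. Only 2 were listed in all 6 libraries, too few for the test. On these, full-length NRPD1 was at 20% and 41.7%, NRPD1ΔCTD at 20% and 8.33% and nrpd1-3 at 0%, from 10 or 12 reads a library. limma, which reads the spread from the 6 libraries, called neither difference of this window. Across 417722 windows limma called 3603 lower in nrpd1-3 than with full-length NRPD1. It called 0 lower in NRPD1ΔCTD than with full-length NRPD1, where its smallest adjusted p was 0.102. limma could therefore call no loss in NRPD1ΔCTD at any locus, and its lack of that call says nothing about FWA.

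Averaged over 3000-base flanks, FWA had low CHH levels. Upstream, 13035360 to 13038359, the level was 0.76% and 0.27% in full-length NRPD1, 0.33% and 0.66% in NRPD1ΔCTD, and 0.86% and 0.31% in nrpd1-3. Upstream all groups overlapped. Downstream it was 0.42% and 0.48% with full-length NRPD1 and between 0.18% and 0.35% in the other libraries, so that full-length NRPD1 lay highest by a small margin. Across the gene, which includes the repeats past the gene start, it was 2.39% and 1.15% in full-length NRPD1, 1.05% and 0.56% in NRPD1ΔCTD and 0.87% and 0.41% for nrpd1-3, and the mean of full-length NRPD1, 1.77%, exceeded that of 93.9% of 26650 protein-coding genes, whose median was 0.37%. No bin over the FWA repeats had at least 5 cytosines in each library, so none could be ranked. Of these, chr4:13038360-13038459 was at 37.9% and 27.5% with full-length NRPD1, 19.0% and 17.9% with NRPD1ΔCTD, and 1.03% and 0% for nrpd1-3. NRPD1ΔCTD replicate 2 listed only 4 cytosines there. Among the bins that passed, the highest lay 1900 bases into the gene. This bin was at 0% and 0.45% with full-length NRPD1, 7.48% and 0.885% with NRPD1ΔCTD, and 7.21% and 1.05% for nrpd1-3. It was high in replicate 1 of 2 groups only.

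**Figure D2:**
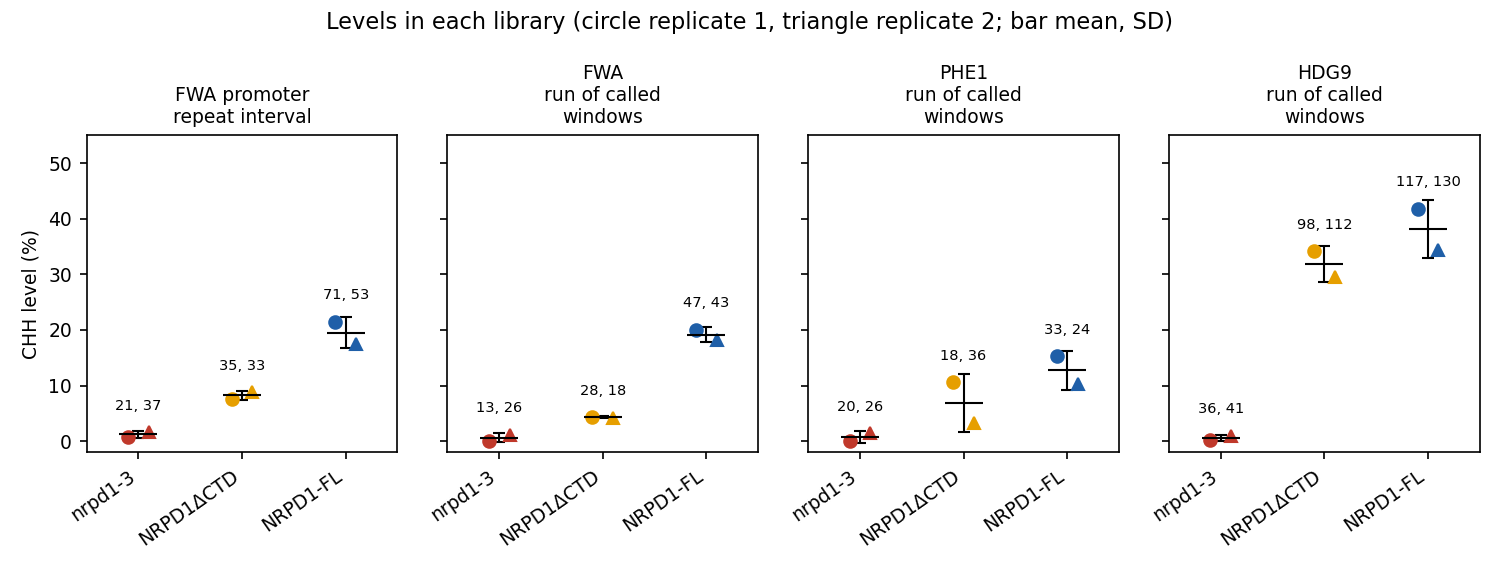
CHH level (%) of each library in the FWA repeat interval, the called FWA window, the called PHE1 window and the run of 3 called HDG9 windows, with circles for replicate 1, triangles for replicate 2, the group mean as a bar and the SD as whiskers. Numbers over the points are the cytosines listed in each library. Full-length NRPD1 lies above nrpd1-3 in all 4 regions, but the called regions were selected for this direction and the FWA interval contains the called FWA window.

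HDG9, the member with the most CHH methylation, was methylated past its 3′ end, toward UGP2 (UDP-glucose pyrophosphorylase), and regained most of the level in NRPD1ΔCTD. Over the 3000 bases downstream, chr5:5700139-5703138, the level was 29.2% and 24.1% in full-length NRPD1, 21.6% and 20.9% in NRPD1ΔCTD, and 0.67% and 0.52% in nrpd1-3. The groups did not overlap. The means were 26.6% ± 3.60, 21.3% ± 0.47 and 0.60% ± 0.11 (SD, n = 2 each), and the full-length level was above that of 99.6% of the downstream flanks of 27265 protein-coding genes. The exact permutation p was 0.333 for each comparison of groups.

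The 3 called windows of HDG9 joined to chr5:5701201-5701900, 1239 to 1938 bases past the gene end. Over this run the level was 41.8% and 34.4% in full-length NRPD1, 34.2% and 29.6% in NRPD1ΔCTD, and 0.21% and 0.98% in nrpd1-3. nrpd1-3 lay far below the other groups, and the higher NRPD1ΔCTD library came close to the lower full-length one. On the 30 cytosines of the run listed in all 6 libraries, full-length NRPD1 was at 29.0% and 21.5% and NRPD1ΔCTD at 25.4% and 21.4%. These groups overlapped there, while nrpd1-3 was at 0.23% and 0.90%. By window, nrpd1-3 was lower than full-length NRPD1 by 42.0, 53.4 and 29.8 points (adjusted p = 2.69e-47, 5.67e-51 and 1.92e-75) in chromosome order. NRPD1ΔCTD was higher than nrpd1-3 by 29.2, 48.1 and 30.0 points (adjusted p = 1.09e-28, 4.94e-41 and 1.93e-71). NRPD1ΔCTD held 70.9%, 90.4% and 101.2% of the difference, where 58.3%, 87.7% and 94.5% of all windows called lower in nrpd1-3 held less. Only the first window also separated NRPD1ΔCTD from full-length NRPD1, by -12.8 points (adjusted p = 1.57e-08), and that call was lost without full-length NRPD1 replicate 1 (-8.02 points) or NRPD1ΔCTD replicate 2 (-6.56 points). limma called the 3 losses in nrpd1-3 and none of the other differences. Across the genome it called 600 windows higher in NRPD1ΔCTD than in nrpd1-3. It called 0 lower in NRPD1ΔCTD than with full-length NRPD1, so it could not have called that difference here.

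Within the first HDG9 window the levels changed at the boundary described above. Before position 143 of the printed sequence they were 4.60% and 3.37% in full-length NRPD1, 2.44% and 0.90% in NRPD1ΔCTD, and 0% in both nrpd1-3 libraries. From position 143 they were 69.2% and 68.5% in full-length NRPD1, 61.0% and 51.7% in NRPD1ΔCTD, and 0% and 1.32% in nrpd1-3. nrpd1-3 listed 13 and 12 cytosines before this position but only 3 and 10 from it, against 19 and 33 before and 32 and 33 from it in full-length NRPD1. Restricted to the 11 cytosines that all 6 libraries listed, the window of nrpd1-3 minus full-length NRPD1 gave -6.84 points and was not called, NRPD1ΔCTD exceeded nrpd1-3 by 8.40 points, which was not called either, and NRPD1ΔCTD and full-length NRPD1 differed by 1.57 points. The other 2 windows kept their losses in nrpd1-3 on such cytosines, at -34.7 and -26.9 points, and the gains of NRPD1ΔCTD over nrpd1-3, at 35.5 and 25.3 points.

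Fewer cytosines were listed in nrpd1-3 along the HDG9 flank, and beyond the shared cytosines above the part of this in the levels was not tested. Of 641 reference CHH cytosines, nrpd1-3 listed 14.5% and 19.5%, NRPD1ΔCTD 32.6% and 32.9%, and full-length NRPD1 34.8% and 35.1%. The highest bin with at least 5 cytosines in each library, chr5:5701439-5701538, was at 60.8% and 67.1% in full-length NRPD1, 54.4% and 43.6% in NRPD1ΔCTD, and 0% and 1.32% in nrpd1-3. Closer to the gene, chr5:5702839-5702938 reached 93.3% and 66.7% in full-length NRPD1, on 3 cytosines a library, against 37.0% and 14.6% in NRPD1ΔCTD and 0% in nrpd1-3 replicate 2, the only nrpd1-3 library with a cytosine listed there.

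**Figure D3:**
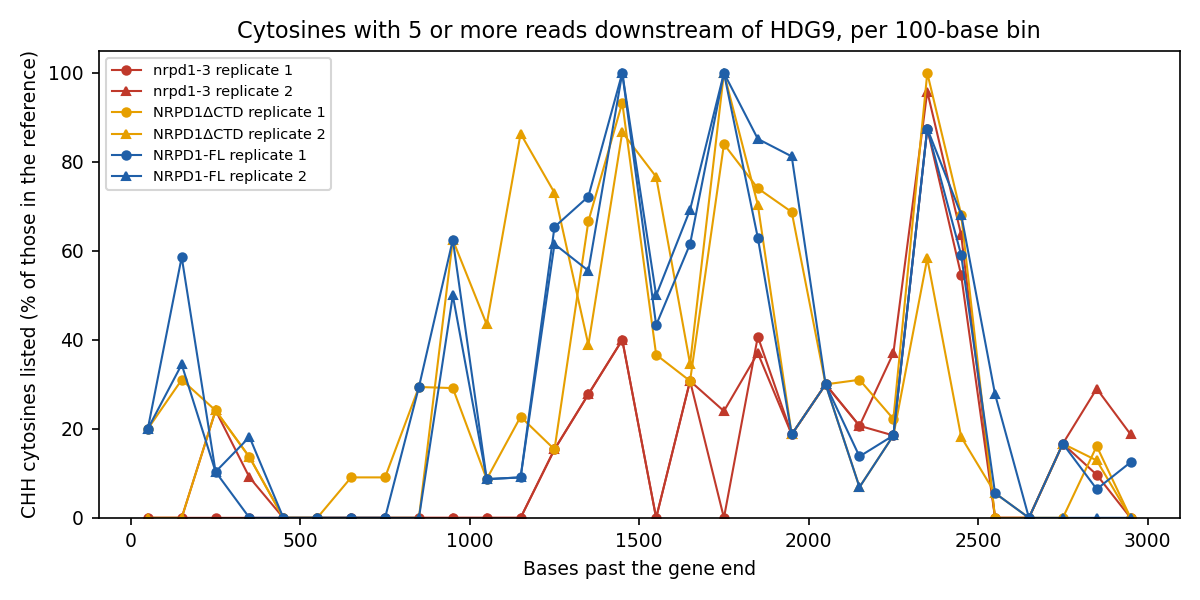
Share of the reference CHH cytosines with at least 5 reads (%) in 100-base bins downstream of HDG9, against bases past the gene end, with a line for each library. Over the called run, 1239 to 1938 bases past the gene end, the nrpd1-3 libraries listed 21.6% and 24.6% of the cytosines and the other libraries 58.7% to 77.8%.

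In the HDG9 run CHH methylation was found in every sequence context and on both strands. With the reads of both libraries pooled, in full-length NRPD1 the trinucleotides ranged from 21.3% for CAC and 21.8% for CAT to 49.3% for CAA and 53.6% for CTT. In NRPD1ΔCTD the same trinucleotides were at 22.0%, 21.0%, 38.1% and 42.6%, and in nrpd1-3 none of the 9 trinucleotides exceeded 2.78%. The top and bottom strands were at 34.8% and 41.5% in full-length NRPD1 and at 31.9% and 31.2% in NRPD1ΔCTD.

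Elsewhere HDG9 held less CHH methylation. Across the gene the level was between 0.78% and 1.13% in all 6 libraries and the groups overlapped. A bin 500 bases into the gene held 30.6% and 29.4% in full-length NRPD1, on 8 and 7 cytosines, against 14.9% and 12.5% in NRPD1ΔCTD, on 7 and 1, and 7.92% and 1.72% in nrpd1-3, on 10 and 7. Upstream, chr5:5707638-5710637, the level was 6.49% and 6.38% in full-length NRPD1, 2.35% and 3.50% in NRPD1ΔCTD and 0.30% and 0.53% in nrpd1-3, without overlap. Only 33 to 42 of 623 cytosines were listed there, and no window of this flank was called.

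PHE1 was methylated past its 3′ end at a lower level, and its libraries varied more. Downstream, chr1:24263257-24266256, the level was 6.84% and 3.30% in full-length NRPD1, 2.67% and 3.44% in NRPD1ΔCTD, and 0.41% and 0.73% in nrpd1-3. Both other groups lay above nrpd1-3, while NRPD1ΔCTD and full-length NRPD1 overlapped. In the printed window the level was 15.2% and 10.3% in full-length NRPD1, 10.6% and 3.20% in NRPD1ΔCTD, and 0% and 1.43% in nrpd1-3. Pooled reads were 12.3 points lower in nrpd1-3 than with full-length NRPD1 (adjusted p = 6.71e-12), a call lost without full-length NRPD1 replicate 1 (-9.43 points) and not made by limma. NRPD1ΔCTD held 51.4% ± 43.5 of the difference (SD over 2 libraries), and its differences from nrpd1-3, 4.91 points, and from full-length NRPD1, -7.35 points, were both under the 10 points needed.

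The PHE1 gene itself was at 0.11% and 0.28% in full-length NRPD1 and at most 0.48% in the other libraries, and its mean in full-length NRPD1 exceeded that of only 3.22% of protein-coding genes. A repeat with copies 54 bases apart lies farther downstream, chr1:24264097-24264312, with 15.3% G and C. None of its 27 reference CHH cytosines was listed in any library, so its methylation was not measured. The highest PHE1 bin with at least 5 cytosines in each library, chr1:24265157-24265256, was at 21.2% and 6.25% in full-length NRPD1, 0% and 6.29% in NRPD1ΔCTD, and 2.21% and 0.43% in nrpd1-3.

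MEA carried most of its CHH methylation downstream, around its tandem repeats. No MEA window was called, but only 29 of 54 could be tested. The largest loss in nrpd1-3 among these was 0.57 points. Each nrpd1-3 library listed at most 6 cytosines in any MEA repeat stretch, fewer than the 10 needed. No window inside such a stretch could therefore be tested. Over chr1:549203-552202 the level was 3.76% and 2.25% in full-length NRPD1, 1.49% and 1.3% in NRPD1ΔCTD, and 0.21% and 0.49% in nrpd1-3, without overlap between groups. With reads pooled by group this order held on the top strand, at 5.67%, 2.97% and 0.30%, but not on the bottom strand, at 0.24%, 0.33% and 0.34%. In the 923 bases of chr1:549792-550714, full-length NRPD1 was at 13.5% and 7.59% on 26 and 23 cytosines of 174, and NRPD1ΔCTD at 9.64% and 12.3% on 11 and 13. These groups overlapped. nrpd1-3 replicate 1 had 0 methylated of 33 reads on 6 cytosines there, and replicate 2 listed no cytosine. All cytosines listed in this stretch were on the top strand in the pooled reads of each group. The last repeat, chr1:550757-550879, was listed in no library.

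The MEA gene was at 0.27% to 0.45% in the 6 libraries. Its upstream flank was at 0.11% and 0.42% in full-length NRPD1, 0.33% and 0.20% in NRPD1ΔCTD, and 1.47% and 0.43% in nrpd1-3. Both nrpd1-3 libraries lay above the others there, replicate 2 by little. The highest MEA bin with at least 5 cytosines in each library, which no bin inside the repeat stretches had, did not exceed 2.24% in any library.

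FIS2 and HDG3 had low CHH levels in all groups over the cytosines that each library listed. The parts of FIS2 were between 0.23% and 1.02% and those of HDG3 between 0.20% and 0.97% in the 6 libraries. The FIS2 repeat stretch chr2:14995002-14995573, inside the gene, was at 0% to 0.60% with 66 to 111 cytosines listed. The repeat stretch chr2:14994502-14994677 was at 0% to 1.46%, while chr2:14992765-14992859 and chr2:14992873-14992967, near the gene start, were listed in only 2 and 3 of the 6 libraries. FIS2 bins starting 600 to 200 bases before the gene start listed at most 2 cytosines in a library. Those starting 400 to 900 bases into the gene listed none, so methylation there was not measured. By logistic regression no window of either gene was called in any comparison. For nrpd1-3 lower than full-length NRPD1, 0 windows of FIS2 and 0 of HDG3 had an unadjusted p under 0.05, and limma gave 0 for each. For nrpd1-3 higher, 3 and 5 windows did, and 1 and 2 by limma. The corresponding counts at MEA were 0 lower, and 3 higher by logistic regression and 4 by limma, with no window inside its repeat stretches testable. The shares of all windows at such an unadjusted p were not counted, so no direction particular to these genes is read from the counts. The highest bins with at least 5 cytosines in each library were a FIS2 bin 1600 bases before the gene start, at 0.98% to 5.26%, and an HDG3 bin downstream, at 12.5% in nrpd1-3 replicate 1 and 0% to 1.49% in the other libraries. HDG3 has a 57-base repeat upstream, chr2:13738001-13738112, whose copies were identical, but 5 of 6 libraries listed no cytosine in it. Of the 658 CHH cytosines upstream of HDG3, 10.3% to 15.2% were listed, so most of this flank was not measured. In it, the bin 800 bases before the gene start was at 33.3% and 40% with full-length NRPD1, on 1 cytosine each with 6 and 5 reads. The bin 700 bases before the start was at 16.7% and 5.26% with full-length NRPD1, on 4 and 7 cytosines, against 4% in NRPD1ΔCTD replicate 1 and 0% in nrpd1-3 replicate 2, the other libraries listing none there.

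**Figure D4:**
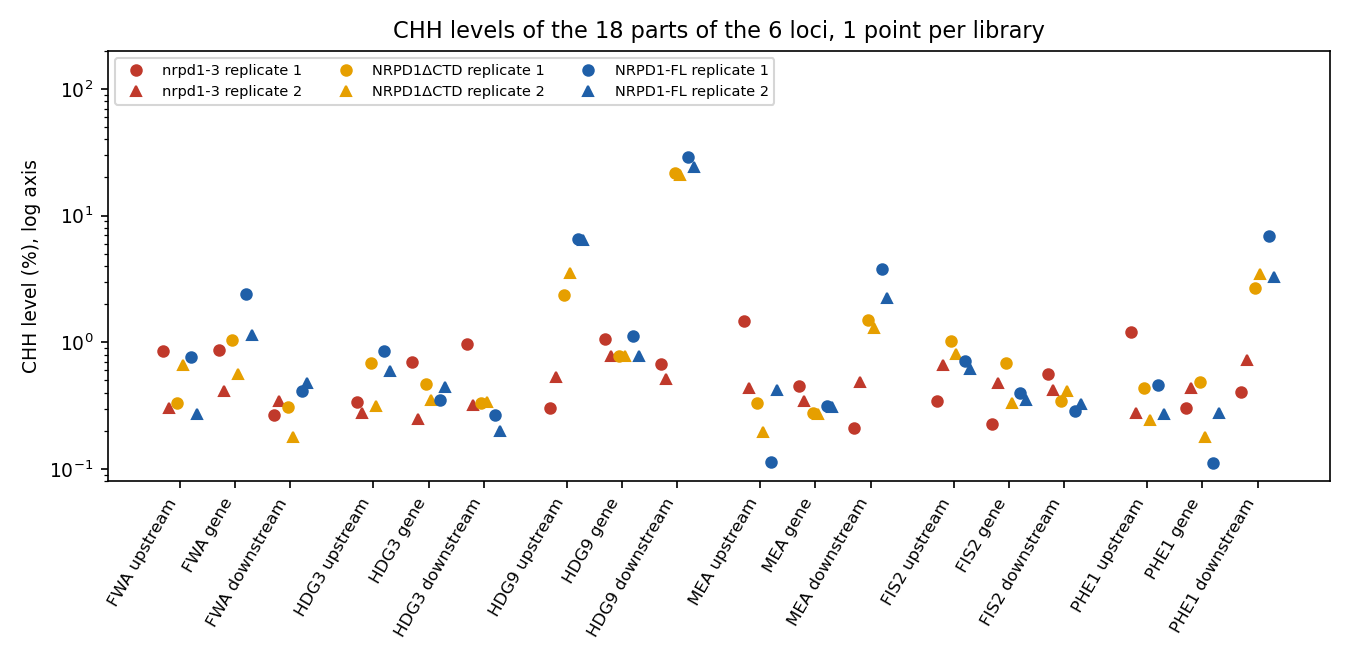
CHH level (%, log axis) of the upstream flank, gene and downstream flank of each locus, with 1 point per library (circles replicate 1, triangles replicate 2). The HDG9 downstream flank stands highest, at 20.9% to 29.2% in the transgenic groups, and the parts of FIS2 and HDG3 lie between 0.20% and 1.02% in every group.

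Over the 18 gene and flank parts, nrpd1-3 was lower than full-length NRPD1 without overlap in 7 parts (18.7% of 81152 parts of all protein-coding genes) and higher in 5 (23.1% of all). NRPD1ΔCTD lay above nrpd1-3 in 5 (16.5% of all) and below it in 3 (21.5% of all). NRPD1ΔCTD lay below full-length NRPD1 in 6 (24.5% of all) and above it in 3 (16.1% of all). The exact permutation test of 2 against 2 libraries cannot go below p = 0.333, and the smallest adjusted value over the 54 tests was 0.621, so it could call no part. No other test was run on the parts. The parts with higher nrpd1-3 levels differed by small amounts, of 0.69 points at most for the MEA upstream flank, whereas the lower ones reached 26.0 points.

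Another 13 genes known to be imprinted in the Arabidopsis endosperm, listed from general knowledge, gave 382 testable windows. Of these, 8 were lower in nrpd1-3 than with full-length NRPD1 (2.09%), at HDG8, MYB3R2, PKR2, AGL36 and YUC10, 4 were higher in NRPD1ΔCTD than in nrpd1-3 (1.05%) and 2 lower in NRPD1ΔCTD than with full-length NRPD1 (0.524%). These shares were below those of all windows tested, given above. HDG8, another class IV homeodomain gene, resembled HDG9 in level. Its upstream window chr3:760201-760500 was at 43.8% and 39.7% in full-length NRPD1, 30.1% and 27.5% in NRPD1ΔCTD and 0% and 2.50% in nrpd1-3, and was called in all 3 comparisons. The next HDG8 window was lower in nrpd1-3 by 12.4 points. Downstream of YUC10, a gene of auxin synthesis, chr1:18095801-18096100 was at 31.8% and 30.5% in full-length NRPD1, 33.4% and 20.9% in NRPD1ΔCTD, and 0% in both nrpd1-3 libraries, and 2 windows upstream of it were lower in nrpd1-3 by 14.6 and 10.1 points. At AGL36, a type I MADS box gene, 1 window was lower in nrpd1-3 (-10.8 points) and a different one was lower in NRPD1ΔCTD than with full-length NRPD1 (-10.1 points). PKR2, a chromatin remodeller, and MYB3R2, a MYB factor, each had 1 window lower in nrpd1-3, by 29.5 and 10.3 points.

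FWA with its flanks was not unusual as an average. Over gene and flanks it was at 1.38% and 0.80% in full-length NRPD1, 0.64% and 0.42% in NRPD1ΔCTD, and 0.61% and 0.37% in nrpd1-3. The genes most like it over the 6 library levels, among 27302 protein-coding genes, were DEG10, AT4G32860, ATSMC2, AT5G43530 and ICK6, with root mean square differences of 0.0882 to 0.106 points. As many as 13984 genes lay within 0.5 points of FWA by this measure, so the likeness says little about the repeats, which fill a small part of the locus.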

How the data were processed

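Coverage was deposited as a whole count of reads at each CHH cytosine, and the deposited percent values give the methylated and unmethylated share of it. Per the labels and the study's methods, the authors used the TruSeq DNA methylation kit and a NextSeq instrument, bcl2fastq 2.16.0.10, Cutadapt 1.9.1, Bismark 0.16.1 on TAIR10 with PCR duplicates removed, and methylKit 0.9.5. Cytosines with fewer than 5 reads are not listed in a library, so that levels of a region can rest on different cytosines in different libraries. Coverage times percent gave whole methylated reads within 0.001. Sample titles of the full-length group name NRPE1, but the transgene field names NRPD1 and was followed.

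Levels are methylated reads divided by reads, in percent. Every listed cytosine of the 6 loci was CHH in TAIR10.1 (RefSeq), whose annotation was used. Windows followed the scheme of the study. Logistic regression used a likelihood-ratio test, took reads as independent within a group and adjusted by Benjamini-Hochberg over all windows. It was tested on simulated reads drawn without spread between libraries, which cannot check that independence. limma 3.58.1 (R 4.3.3) on arcsine square root levels was an alternative. Exact permutation (two-sided, Python 3.11.15) served for library levels. The share held by NRPD1ΔCTD is its level minus the nrpd1-3 mean, divided by the full-length minus nrpd1-3 mean. Repeats were stretches matching themselves at offsets of at least 20 and under 1000 bases with a score of at least 40 (1 per match, -2 per mismatch). The members and lists were chosen with earlier results of these data known. Named were all members, runs of called windows, the highest bin of each locus with at least 5 cytosines in every library, listed imprinted genes with a called window, and the 5 genes most like FWA. Other regions were named after their values were seen. Failed conversion was not corrected. Other cytosine contexts and small RNA were not analysed here.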

Additional observations from a re-analysis of the deposited data

How the results depend on the processing

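The windows lower in nrpd1-3 than with full-length NRPD1 (5) numbered 3 with a difference of at least 20 points, 3 with limma, 0 with at least 20 cytosines per window, 1 with at least 10 reads per cytosine and 2 on cytosines listed in all 6 libraries. The windows higher in NRPD1ΔCTD than in nrpd1-3 (3) numbered 0 with limma, 0 with at least 20 cytosines, 1 with at least 10 reads and 5 with at least 5 cytosines, a setting chosen after seeing the data. The windows lower in NRPD1ΔCTD than with full-length NRPD1 (2) numbered 0 with 20 points, with limma, with 20 cytosines, with 10 reads, on common cytosines and with 100 bp windows. limma called 0 windows of this kind across the whole genome, so its count here says nothing about these loci. The settings of 20 cytosines, 10 reads and common cytosines left 120, 96 and 172 member windows to test, against 182, and the losses there include windows no longer tested. Leaving out each library in turn gave 4 to 6, 3 to 3 and 1 to 2 windows. On cytosines listed in all 6 libraries the HDG9 window chr5:5701201-5701500, called lower in NRPD1ΔCTD by 12.8 points, turned to 1.57 points higher and was not called.

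The FWA interval differences (-18.3, 7.00 and -11.3 points, in the order of nrpd1-3 minus full-length NRPD1, NRPD1ΔCTD minus nrpd1-3 and NRPD1ΔCTD minus full-length NRPD1) were -26.2, 9.12 and -17.1 on the bottom strand. On cytosines listed in all 6 libraries the last pair was 17.9 and -1.52, and unweighted the last was -14.4. Leaving out each library gave -20.3 to -16.3, 6.43 to 7.56 and -13.3 to -9.31. At 10 reads per cytosine no FWA value could be had, and on the top strand only the last, since libraries listed no such cytosine. The cause of these shifts was not tested. With the replicate number as a replicate block, counts were 5, 3 and 2 and the FWA differences -18.3, 7.00 and -11.3. Deviations of same-numbered libraries from their group means were nearly uncorrelated over windows (0.0066, 0.0049 and -0.0045). Over all listed cytosines, however, replicate 1 lay higher in each group. The levels were 6.84% and 6.06% for nrpd1-3, 7.11% and 6.71% for NRPD1ΔCTD, and 7.27% and 6.95% with full-length NRPD1. These values do not decide whether the numbers pair libraries. Among the part differences of at least 1 point, the sign changed in 4 of 13 on the bottom strand (all 3 of MEA downstream, at 0.0848, -0.00325 and 0.0815 points, among them), 3 of 13 on common cytosines, 2 of 13 at 10 reads and 1 of 8 with flanks of 1000 bases, and in none without any library. Depth limits the repeats, several of which had few or no cytosines listed.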

Other observations

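Several bins outside the repeats were high in nrpd1-3 replicate 1 and in no other library that listed cytosines there. A bin 1500 bases before the MEA start was at 16.4% on 18 cytosines in that library, against 0% on 17 cytosines in nrpd1-3 replicate 2 and 0% in the other libraries with listed cytosines. Downstream of HDG3, bins at chr2:13747687-13747786 and chr2:13748287-13748386 were at 11.8% and 12.5% in nrpd1-3 replicate 1 and at most 1.49% elsewhere. Upstream of PHE1, chr1:24268637-24268736 was at 8.51% in nrpd1-3 replicate 1 and at most 1.52% elsewhere. These bins were chosen after their values were seen and were not tested. The nrpd1-3 replicate 1 level of the MEA upstream flank given above includes the MEA bin.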
